A study of Homo sapiens with 6 samples.

Results

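The genes described here are 10 targets of the transcription factor NF-kB, compared between wild-type and BRCA2 knockout HCT116 cells. They are the adhesion molecule gene ICAM1, the chemokine genes CXCL8, CXCL1, CXCL2, CXCL3 and CCL20, the feedback inhibitor genes NFKBIA and TNFAIP3, the ubiquitin ligase gene BIRC3 and the cytokine gene IL32. A member was taken as measured where a probe set carried its symbol alone, which held for 8 of the 10 among 13139 genes represented on the arrays. CXCL1 shared its probe set with CXCL2 in the annotation and BIRC3 was not found in it, so neither was compared between the genotypes. Each of the 8 measured members had 1 probe set of its symbol alone. Values of the probe set that CXCL2 shares with CXCL1 are not given.

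HCT116 is a human colon carcinoma line, and BRCA2 loads the recombinase onto DNA ends during homologous recombination. The wild-type cells came from a cell repository. The knockout cells are of isogenic origin and had lost both BRCA2 alleles through successive gene targeting. Which of the knockout lines gave the RNA is not stated in the labels, and a difference between the genotypes and a difference between lines cannot be told apart. Both genotypes were grown in the same serum-containing medium, and no inflammatory stimulus is described for either. Each genotype had 3 arrays. The labels call them technical replicates, while the extraction protocol speaks of 3 frozen samples per genotype, and whether these were separate cultures is not stated. The SEs and p-values therefore measure the spread between arrays, which may be technical.

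NF-kB is a family of dimeric transcription factors held in the cytoplasm by inhibitors of the IkB family. Signals from tumour necrosis factor, interleukin-1 or Toll-like receptors activate the IkB kinase complex, which marks the inhibitor for destruction and lets the dimers enter the nucleus. There they induce chemokines and adhesion molecules that recruit leukocytes, and also their own inhibitors, among them IkB alpha, the product of NFKBIA, and the ubiquitin-editing enzyme A20, the product of TNFAIP3. In intestinal epithelium this programme is best known for calling neutrophils and lymphocytes to sites of infection or injury.

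The promoters of the members are shown because the members were chosen as targets of 1 factor, and because ICAM1 stood below wild type by value and the other measured members above it, although no member passed the test. Sequences are from RefSeq, build GRCh38.p14, and all 10 members were matched by symbol. In the 250 bases before each annotated start, 2 patterns were searched on both strands. The kB consensus was found in 8 of the 10 member promoters, against 9.96% of 35116 promoters of the same length. The shorter pattern GGNNNTTCC, which overlaps the kB consensus at many sites, was found in all 10, against 17.1%. ICAM1 and CXCL8 held only the shorter pattern. The members were picked as known targets, so these counts describe the choice of genes. Each stretch below runs 5′ to 3′ on the gene's strand and has in capitals 1 match to the kB consensus or, for ICAM1 and CXCL8, to the shorter pattern. Other matches are not marked, among them a kB match of TNFAIP3 at bases -67 to -58 from the start, just before its capitals.
ICAM1, chr19:10270909-10270967, plus strand: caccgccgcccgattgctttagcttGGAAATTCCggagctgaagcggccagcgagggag
CXCL8, chr4:73740453-73740511, plus strand: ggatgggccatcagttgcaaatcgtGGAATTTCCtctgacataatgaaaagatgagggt
CXCL2, chr4:74099239-74099298, minus strand: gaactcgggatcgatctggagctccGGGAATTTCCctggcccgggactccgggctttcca
CXCL3, chr4:74038734-74038793, minus strand: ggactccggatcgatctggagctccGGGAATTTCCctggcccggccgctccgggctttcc
CCL20, chr2:227813738-227813797, plus strand: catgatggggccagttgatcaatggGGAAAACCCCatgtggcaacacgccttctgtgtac
TNFAIP3, chr6:137867179-137867238, plus strand: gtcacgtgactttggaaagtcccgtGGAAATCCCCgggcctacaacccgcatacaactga
NFKBIA, chr14:35404796-35404855, minus strand: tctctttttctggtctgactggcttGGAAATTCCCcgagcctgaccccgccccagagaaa
IL32, chr16:3065279-3065338, plus strand: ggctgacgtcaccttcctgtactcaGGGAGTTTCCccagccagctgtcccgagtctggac

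The same 9 bases of ICAM1 recur within the match of NFKBIA, and the 9 bases of CXCL8 recur within those of CXCL2 and CXCL3. Compared base by base without gaps, the stretches of CXCL2 and CXCL3 were identical at 48 of 60 positions. These 2 genes and CXCL1 are close paralogs, and signal from one could reach the probes of another, which was not tested.

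The comparison asked which of these genes differed between knockout and wild-type cells. ICAM1 had by far the largest difference of the 8 and was lower in the knockout, while the other 7 were higher by 0.33 to 1.02 on the log2 scale. No member passed the test over all probe sets (limma, adjusted p under 0.05), a threshold that 0.570% of 19458 probe sets passed. At an unadjusted p under 0.05 there were 2 members, ICAM1 and CXCL8, against 12.2% of all probe sets. A linear model without moderation also called 0 members, with 1, ICAM1, at an unadjusted p under 0.05. The median difference of the members was 0.45, against 0.02 over all probe sets and 0.07 over all genes with 1 probe set each. For 3 members no knockout array fell within the wild-type range, against 19.7% of all probe sets and 21.2% of all genes. CCL20 and NFKBIA were higher in the knockout without overlap, as were 12.0% of all probe sets and 14.1% of all genes. ICAM1 was lower without overlap, as were 7.70% of all probe sets and 7.08% of all genes.

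The arrays differed in overall level, which touches several of these values. The median over all probe sets was 7.71, 7.36 and 7.48 for wild-type arrays 1 to 3, and for knockout arrays 1 to 3 it was 7.41, 7.80 and 7.41. Wild-type array 1 and knockout array 2 thus had the highest medians, and differences are also given between these 2 arrays and among the other 4. The labelled tissue of origin was checked on 10 colon epithelium markers, which do not identify the line itself. Over the 6 arrays the general epithelial markers EPCAM and KRT18 lay between 9.47 and 10.31 and between 11.95 and 12.33. Of the intestinal markers, VIL1, CEACAM5 and LGALS4 were dimmer, with wild-type means of 5.58, 5.72 and 6.47. These lay close to the mean of 5.33 to 5.96 of 9 measured leukocyte markers on the wild-type arrays. CDX2, also intestinal, was brighter than these, with means of 7.73 (wild type) and 8.20 (knockout). Among the leukocyte markers CD68 was the brightest, with means of 8.62 (wild type) and 9.13 (knockout). On the knockout arrays the leukocyte mean was 5.57 to 6.38, and PTPRC, the pan-leukocyte marker, lay between 4.87 and 6.50 on all arrays. The marker lists were mostly higher in the knockout by value: 9 of 10 for colon epithelium (median difference 0.39, 5 without overlap), 7 of 9 for leukocytes (0.50, 1 without overlap) and 7 of 9 for fibroblasts and endothelium (0.36, 1 without overlap). Among all 13139 genes 54.7% were higher and 21.2% without overlap, with a median difference of 0.07. No marker passed the test. The medians of the marker lists lie near the 0.45 of the members, and their part in the members' values was not tested. BRCA2 itself had no probe set of its own symbol here.

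**Figure D1:**
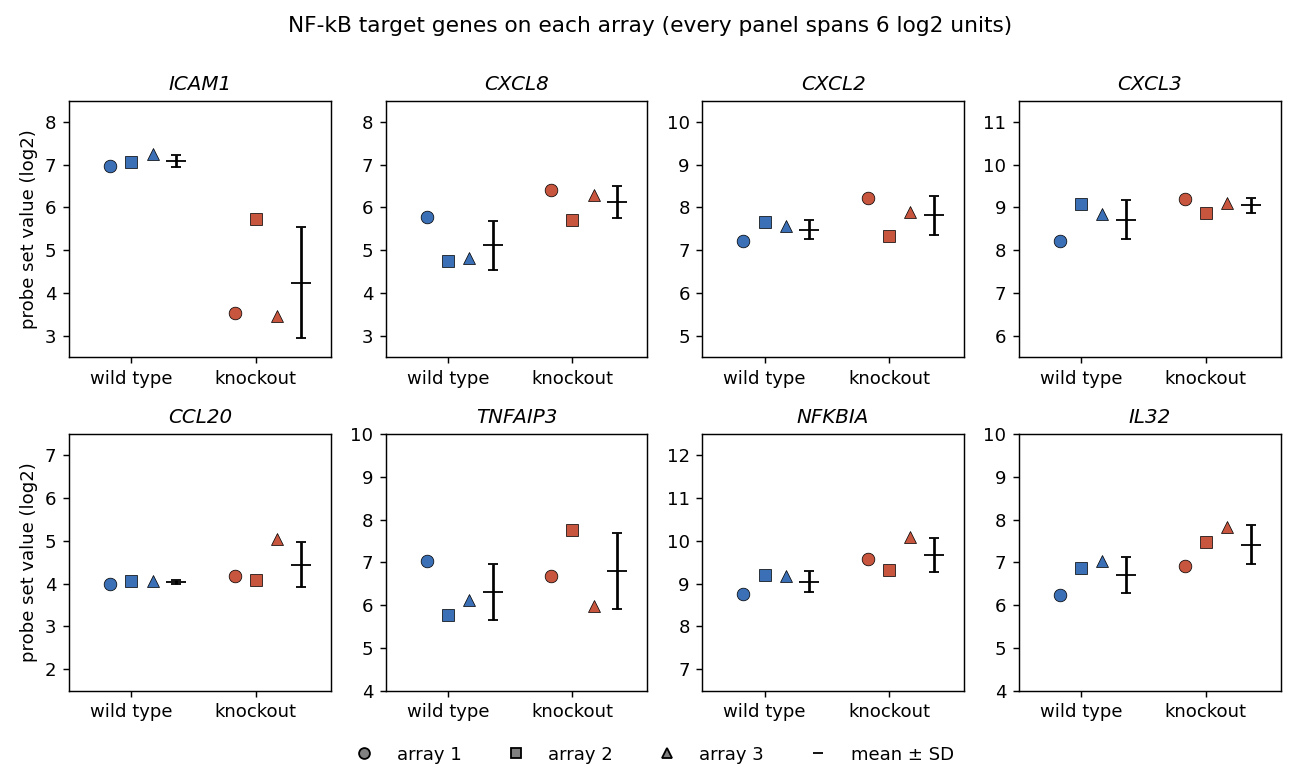
Probe set values (log2, vertical axis) of the 8 measured members on the 3 wild-type arrays (blue) and the 3 knockout arrays (red); circles, squares and triangles are arrays 1, 2 and 3, and bars are means with SD. ICAM1 lay near 7 on the 3 wild-type arrays and between 3.47 and 5.73 on the knockout arrays, and the other panels show smaller differences, with overlap except for CCL20 and NFKBIA.

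ICAM1 encodes an immunoglobulin-like surface protein that leukocyte integrins bind when white cells attach to endothelium or epithelium. The 3 wild-type arrays gave log2 values of 6.97, 7.05 and 7.24, and knockout arrays 1, 2 and 3 gave 3.54, 5.73 and 3.47. The wild-type arrays were tightly grouped, the knockout arrays were all lower, while knockout array 2 stood 2.20 above the next knockout array. The wild-type mean was 7.09 ± 0.14 and the knockout mean 4.25 ± 1.29 (SD, n = 3 arrays), a log2 difference of -2.84 ± 0.61 (SE, adjusted p = 0.13 in limma). This is 7.18-fold lower, with a 95% interval of 2.67-fold to 19.3-fold before adjustment for the number of probe sets. Without knockout array 2 the difference was -3.59 and passed (adjusted p = 0.0124). It was -1.24 between the 2 arrays of highest median and -3.65 among the other 4. The values on knockout arrays 1 and 3 were under 4, near the bottom of the scale, and with values under 4 set to 4 the difference was -2.51. In RNA from whole cultures, fewer cells with ICAM1 and less ICAM1 RNA per cell cannot be told apart.

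ICAM1 lies on chromosome 19 beside other members of its family. Among genes with a probe set, ICAM4, ICAM5, RAVER1 and ICAM3 follow it in that order, and MRPL4, S1PR2, DNMT1 and EIF3G precede it, going outwards. These neighbours were looked at after the values of ICAM1 were known, and none passed the test with the values as deposited. ICAM4, a red-cell adhesion molecule gene, differed by 0.65 ± 0.42 (SE), and ICAM5, first described in neurons, by -0.27 ± 0.28. ICAM3, a leukocyte adhesion molecule gene, had wild-type values of 6.58, 6.95 and 6.88 and knockout values of 7.58, 7.48 and 7.68, so that its arrays did not overlap and the knockout was higher (0.78 ± 0.25, adjusted p = 0.272). DNMT1, the maintenance DNA methyltransferase gene, differed by -0.97 ± 0.24 (adjusted p = 0.18), also without overlap, and passed with a variance trend (adjusted p = 0.0354). ICAM2, which lies elsewhere in the genome, differed by 0.51 ± 0.44. By value, ICAM1 and ICAM5 were lower in the knockout and the other 3 ICAM genes higher.

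**Figure D2:**
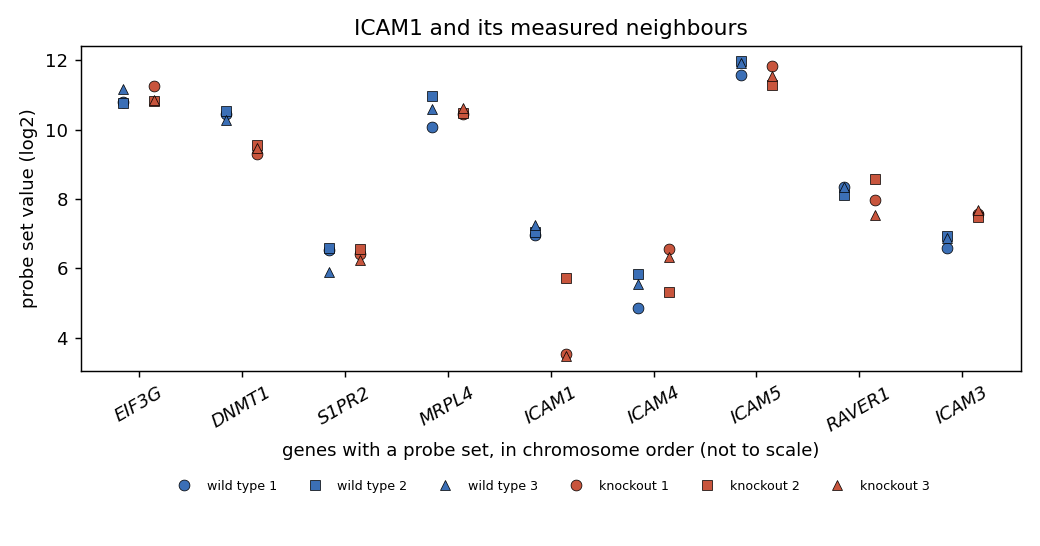
Probe set values (log2, vertical axis) of ICAM1 and the 4 measured genes on each side of it, in chromosome order and not to scale, with wild-type arrays in blue and knockout arrays in red. ICAM1 shows the widest gap between the genotypes; DNMT1 (lower) and ICAM3 (higher) show smaller gaps without overlap.

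CXCL8 encodes interleukin-8, the main neutrophil attractant of human epithelium. Wild-type arrays 1, 2 and 3 gave log2 values of 5.77, 4.75 and 4.82, and the knockout arrays gave 6.41, 5.70 and 6.28. The genotypes overlapped, because wild-type array 1 lay just above knockout array 2. The wild-type mean was 5.12 ± 0.57 and the knockout mean 6.13 ± 0.38, a log2 difference of 1.02 ± 0.37 (SE, adjusted p = 0.345 in limma), or 2.02-fold. The difference was -0.07 between the 2 arrays of highest median and 1.56 among the other 4. With array weights, which gave knockout array 2 the lowest weight and wild-type array 1 the next lowest, it was 1.36 and passed (adjusted p = 0.0461). In that fit wild-type array 3 had a weight of 6.96, against 0.40 to 1.04 for the others, and held 85.0% of the wild-type weight, so that every call with array weights rests largely on 1 wild-type array.

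CXCL2 and CXCL3 encode growth-regulated chemokines that attract neutrophils through the receptor CXCR2. CXCL2 gave 7.22, 7.66 and 7.56 on the wild-type arrays and 8.22, 7.33 and 7.90 on the knockout arrays, in array order. CXCL3 had wild-type values of 8.21, 9.09 and 8.84 and knockout values of 9.20, 8.86 and 9.10. For both genes the lowest array of each genotype was the array of highest median, and the genotypes overlapped. The differences were 0.33 ± 0.32 for CXCL2 (95% interval -0.41 to 1.08, adjusted p = 0.71) and 0.34 ± 0.31 for CXCL3 (-0.39 to 1.07, adjusted p = 0.698). Each rested much on 1 array: CXCL2 was at 0.13 without knockout array 1 and CXCL3 at 0.09 without wild-type array 1. CXCL5, which lies between CXCL8 and CXCL3 on chromosome 4 among genes with a probe set, differed by 0.24 ± 0.30. Further along the cluster, MTHFD2L, a mitochondrial folate enzyme gene, was lower by value, with overlap (-1.50 ± 0.61, adjusted p = 0.391).

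CCL20 encodes the ligand of CCR6, which draws dendritic cells and lymphocytes to mucosal surfaces. It had log2 values of 3.99, 4.05 and 4.07 in the wild type, against 4.19, 4.09 and 5.05 in the knockout. Apart from knockout array 3, the arrays lay within 0.19 of each other at the low end of the scale, and the genotypes were separated by only 0.02. The difference was 0.40 ± 0.32 (SE, adjusted p = 0.659) and 0.10 without knockout array 3. The receptor gene CCR6 had means of 5.34 ± 0.39 (wild type) and 5.64 ± 0.60 (knockout).

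NFKBIA encodes IkB alpha, the inhibitor that is degraded to release NF-kB and is then resynthesised by it. It was at 8.76, 9.20 and 9.18 on the wild-type arrays and 9.58, 9.31 and 10.09 on the knockout arrays. The highest wild-type array was 0.11 below the lowest knockout array. The difference was 0.62 ± 0.30 (SE, 95% interval -0.10 to 1.34, adjusted p = 0.48), and it was 0.56 between the 2 arrays of highest median and 0.65 among the other 4. These 2 values were alike, but the first compares 1 array with 1 array. With any 1 array left out, the NFKBIA difference ranged from 0.40 to 0.79.

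TNFAIP3 encodes A20, which edits ubiquitin chains on signalling proteins upstream of the IkB kinase. It had log2 values of 7.03, 5.77 and 6.12 in the wild type, against 6.68, 7.75 and 5.98 in the knockout. Within each genotype the array of highest median was the highest for this gene, and the genotypes overlapped over most of their range. The difference of 0.50 ± 0.53 (SE, adjusted p = 0.741) was 0.03 without knockout array 2 and 0.91 without knockout array 3. NFKBIA did not share this array pattern: its lowest array in each genotype was the array of highest median.

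IL32 encodes a cytokine made by lymphocytes and epithelial cells that induces further inflammatory mediators. It gave 6.23, 6.86 and 7.03 on the wild-type arrays and 6.92, 7.47 and 7.83 on the knockout arrays. Knockout array 1 lay below wild-type array 3, so the genotypes overlapped. The difference was 0.70 ± 0.35 (SE, 95% interval -0.13 to 1.53, adjusted p = 0.489), with 1.24 between the 2 arrays of highest median and 0.43 among the other 4.

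**Figure D3:**
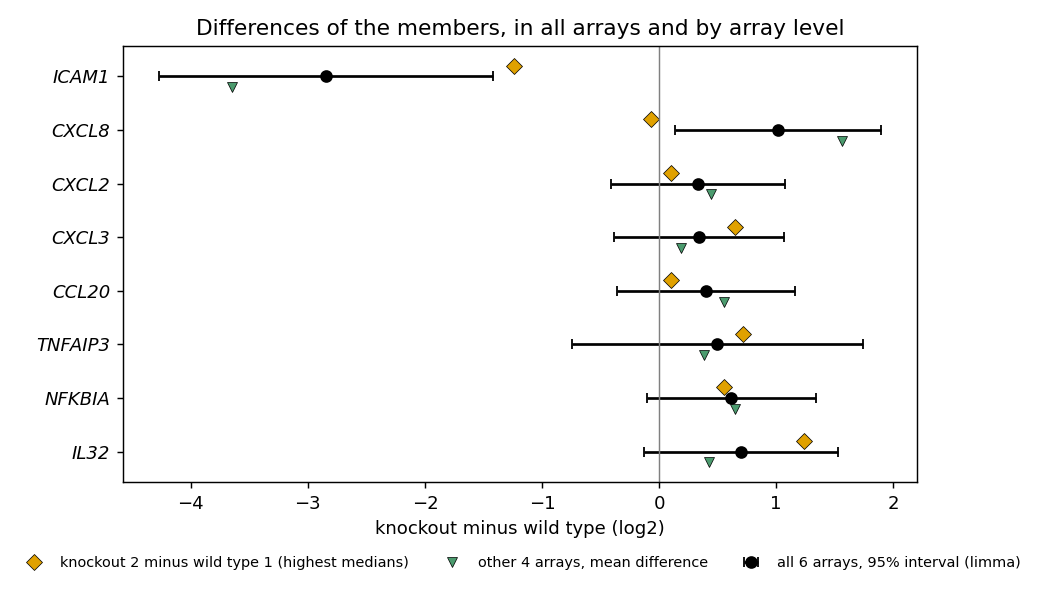
Knockout minus wild type (log2, horizontal axis) for the 8 measured members: black points with bars are the limma difference over 6 arrays with its unadjusted 95% interval, diamonds the difference between the 2 arrays of highest median, and triangles the mean difference among the other 4. ICAM1 was lower by all 3 values (-2.84, -1.24 and -3.65), and CXCL8 lay at -0.07 for the pair of highest median and at 1.56 for the other arrays.

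How alike the members were over the 6 arrays was measured as the root mean square difference of their log2 profiles, each minus its own mean. CCL20 and NFKBIA were the nearest pair (0.19), followed by CXCL2 and CXCL3 (0.21) and by NFKBIA and IL32 (0.26). Profiles were not scaled, so genes that vary little lie near each other by this measure. CCL20 was at the low end of the scale and ranged over only 0.19 apart from knockout array 3. ICAM1 was the farthest from every other member, at 1.75 from TNFAIP3 and up to 2.19 from CXCL8. This largely restates its own difference, which was the largest and opposite in direction to the others. Among 13138 other genes, those nearest to ICAM1 were SPTSSB (0.28), PLA2G4A (0.41), CHN1 (0.45) and ADGRV1 (0.45). Each was lower in the knockout by value, with knockout array 2 the highest of its 3 knockout arrays. For these genes and those below, such shared array patterns follow from the choice by profile. None passed the test with the values as deposited, and each passed in 3 to 5 of 16 alternatives. SPTSSB, a subunit gene of serine palmitoyltransferase, had wild-type values of 7.49, 7.05 and 7.52 and knockout values of 4.40, 5.87 and 3.96. Nearest to TNFAIP3 were ANK3 (0.12), TCEA3 (0.13), SPAG1 (0.15) and PFKFB2 (0.15), each with its highest value on knockout array 2. Nearest to CCL20 were CACNA1F (0.04), TMEM198 (0.07), CTDP1 (0.08) and MYL11 (0.08), each with its highest value on knockout array 3.

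The rest of the pathway was described by 110 genes in lists by role, of which 87 were measured. By value the knockout was higher for 58 of them and lower for 29, or 66.7% higher against 54.7% of all 13139 genes, and the median difference was 0.24, against 0.07. A single gene, LCN2, passed the test. The arrays did not overlap for 22 that were higher and 4 that were lower, together 29.9% of the 87, against 21.2% of all genes (14.1% higher and 7.08% lower).

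Of 7 measured ligand genes, 4 were higher and 3 lower (median 0.20), and 0 passed. TNF, the prototype inducer, gave 4.69, 5.74 and 3.74 on the wild-type arrays and 5.96, 5.01 and 5.94 on the knockout arrays, with overlap (difference 0.91 ± 0.54, SE). This was 0.42 without wild-type array 3 and 1.42 without wild-type array 2. The interleukin-1 genes IL1B and IL1A differed by -0.57 ± 0.73 and -0.44 ± 0.66, and with values under 4 set to 4 both turned to above 0. Among 11 receptor genes, 9 were higher (median 0.43), and 0 passed. The double-stranded RNA receptor gene TLR3 differed by 1.26 ± 0.51 and the lipopolysaccharide receptor gene TLR4 by 0.86 ± 0.36, both without overlap. The difference of 1.19 ± 1.19 in the flagellin receptor gene TLR5 rested on a value of 3.56 on wild-type array 1 and was -0.30 without it.

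Adaptors and kinases were divided into 12 higher and 9 lower of 21 (median 0.02), and 0 passed. TRADD, the adaptor of the tumour necrosis factor receptor, had wild-type values of 7.95, 8.32 and 7.95 and knockout values of 6.61, 7.26 and 7.72, lower without overlap (-0.88 ± 0.34, adjusted p = 0.374). SHARPIN, of the linear ubiquitin ligase complex, and IRAK1, a kinase of the interleukin-1 receptor, were higher without overlap (0.82 ± 0.27 and 0.77 ± 0.28). BIRC2, the paralog of BIRC3 that was measured, differed by 0.29 ± 0.36, which was 0.0037 without wild-type array 2 and 0.62 without wild-type array 1.

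The knockout was higher for 4 of the 5 NF-kB subunit genes (median 0.49), and the arrays did not overlap for 3 of the 5, against 54.7% higher and 21.2% without overlap among all genes. RELB, whose product pairs with that of NFKB2 in the non-canonical pathway, gave 8.23, 7.79 and 7.80 on the wild-type arrays and 8.74, 8.61 and 9.20 on the knockout arrays (difference 0.91 ± 0.29, adjusted p = 0.269). RELA, the main activating subunit, differed by 0.57 ± 0.25 and NFKB2 by 0.49 ± 0.27. None of the 3 passed with the values as deposited, and RELB passed with array weights (adjusted p = 0.0476), where wild-type array 3 holds most of the wild-type weight.

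Inhibitors beside the 2 members were divided into 6 higher and 5 lower of 11 (median 0.00), and 0 passed. The 3 with the largest differences were higher without overlap: TNIP1, a partner of A20, by 0.56 ± 0.27, and the IkB genes NFKBIE and NFKBIB by 0.48 ± 0.30 and 0.47 ± 0.26. These 3 of 11, or 27.3%, lie near the 21.2% of all genes without overlap. Other chemokine genes were higher in 6 of 7 cases (median 0.24), and 0 passed. CXCL16, a membrane-bound chemokine, had wild-type values of 9.63, 9.46 and 9.68 and knockout values of 10.72, 10.80 and 10.59 (difference 1.11 ± 0.24, adjusted p = 0.13). It passed with a variance trend (adjusted p = 0.00953) and with array weights. CCL28, an epithelial chemokine of mucosal surfaces, differed by 0.71 ± 0.30 without overlap, and CCL2 by 0.24 ± 0.35.

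Other adhesion and surface genes were higher in 6 of 8 cases (median 0.38), and 0 passed. Besides the ICAM genes given above, SELE, the endothelial selectin gene, differed by 0.60 ± 0.68. Of 14 measured cytokine, enzyme and survival genes, 8 were higher and 6 lower (median 0.18), and LCN2, which encodes the siderophore-binding protein lipocalin 2, rose from 6.34 ± 0.28 to 10.77 ± 0.17 (difference 4.43 ± 0.27, adjusted p = 0.00207). The LCN2 call was narrowly lost with the replicate number as a block (adjusted p = 0.0524), which by its balance cannot change the difference. It was also lost without the 2 arrays of highest median, where the difference was 4.59 (adjusted p = 0.0501). TNFAIP2 and LIF, and above BIRC2, CXCL5, ICAM2, ICAM5, DNMT1 and MTHFD2L, were chosen after their values were seen. TNFAIP2, induced by tumour necrosis factor, gave 9.07, 8.88 and 8.76 on the wild-type arrays and 10.18, 10.27 and 10.42 on the knockout arrays (difference 1.39 ± 0.24, adjusted p = 0.079), and it passed in 4 of 17 alternatives. LIF, a cytokine of the interleukin-6 family, had wild-type values of 10.51, 10.40 and 10.22 and knockout values of 9.32, 9.19 and 9.47 (difference -1.05 ± 0.24, adjusted p = 0.157), and it passed in 1 of 17, with a variance trend (adjusted p = 0.0253). The integrin genes for the ICAM1 receptor, ITGAL and ITGB2, differed by 0.51 ± 0.56 and 0.25 ± 0.38.

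**Figure D4:**
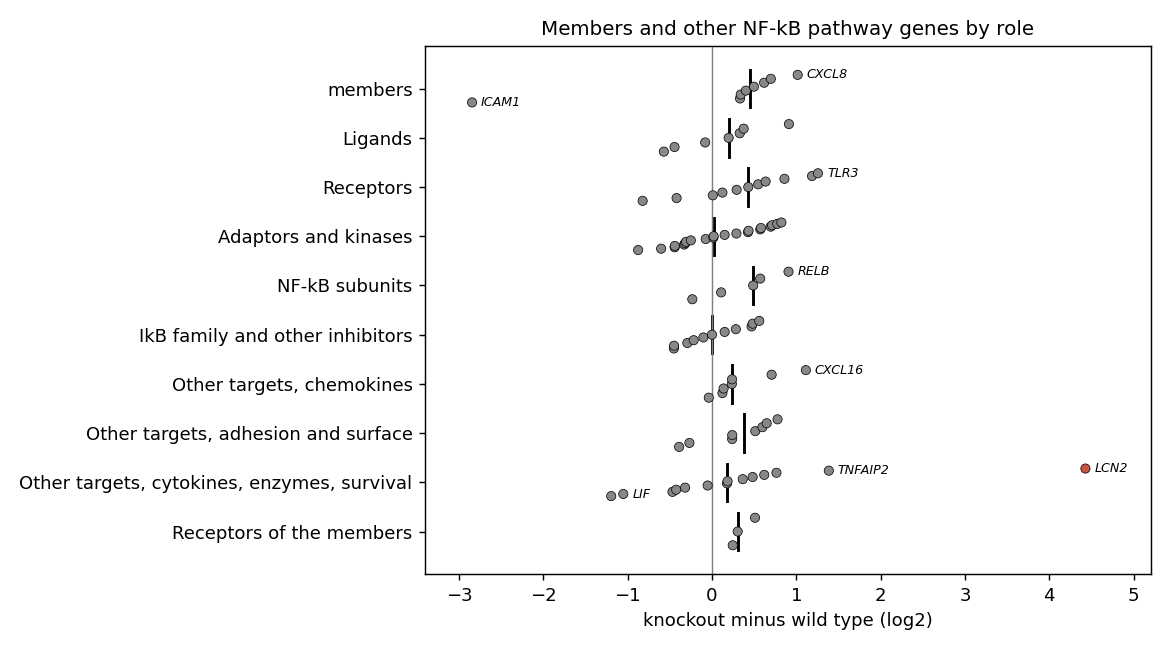
Knockout minus wild type (log2, horizontal axis) for the 8 measured members and the 87 measured pathway genes by role; each point is a gene, red where the adjusted p was under 0.05, and vertical bars are medians. LCN2 is the red point, at 4.43, and ICAM1 lies alone at -2.84.

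The direction of each measured member was the same in every alternative in which it was tested. In the alternatives that changed only the variance, the block or the set of probe sets, the difference itself was unchanged. Direction could therefore not turn in those. ICAM1 ranged from -3.65 to -2.46 and passed in 3 of 16 alternatives, with adjusted p from 0.0112 to 0.432. CXCL8 ranged from 0.84 to 1.56 and passed in 1 of 16. The other 6 members passed in 0 alternatives, and the lowest adjusted p among them was 0.173, for NFKBIA.

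**Figure D5:**
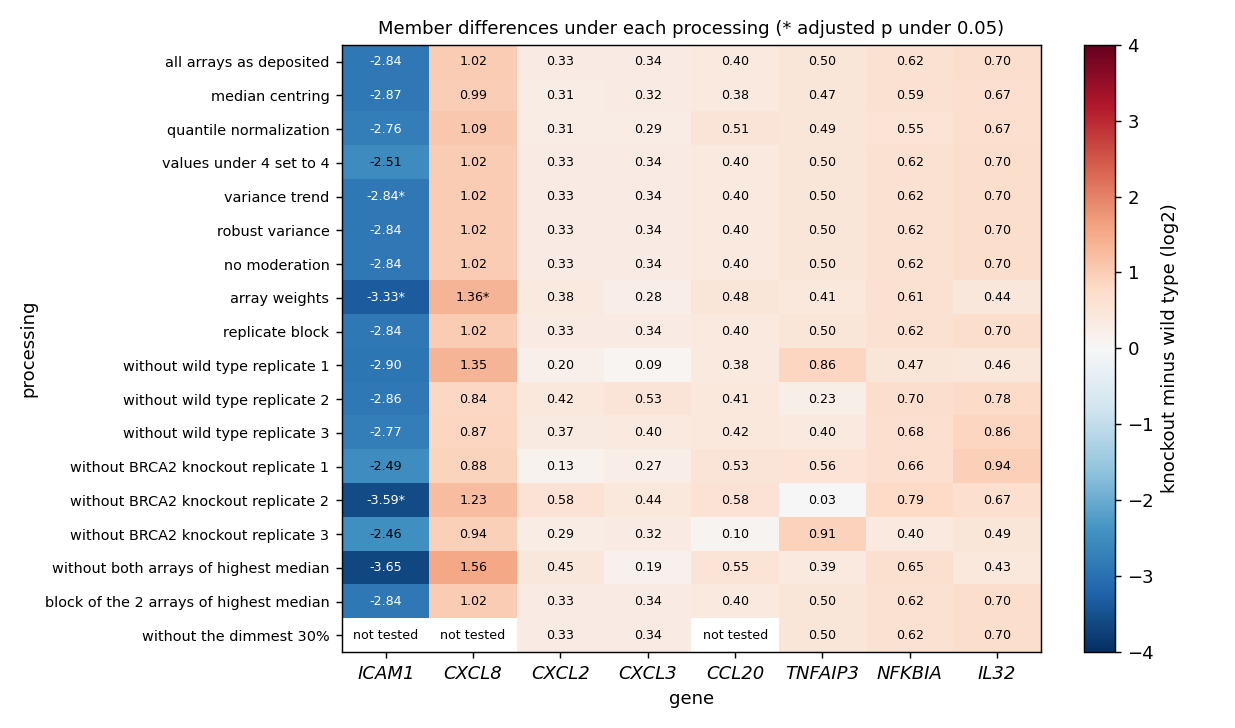
Knockout minus wild type (log2, colour and printed value) for the 8 measured members (columns) under each processing (rows); asterisks mark an adjusted p under 0.05. ICAM1 was negative and the others positive in each row where they were tested, with asterisks for ICAM1 in 3 rows and for CXCL8 in 1.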

How the data were processed

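The deposited data are log2 probe set values of Affymetrix whole-transcript arrays for 6 arrays, 3 per genotype. RMA, the build hg18 and R 2.11.1 are listed per the submitters' processing notes; the steps and filters behind the values are not stated there. That the scale is log2 was read from the spread of the deposited values. Symbols came from the platform annotation (13301 of 19458 probe sets with 1 symbol, 2044 with several, 4113 with none) and were brought up to date by gene identifier with a RefSeq table of GRCh38.p14 (13280 matched), used only for names and gene order. Where a gene had several probe sets, the brightest on average stood for it.

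Genotypes were compared with limma 3.58.1 in R 4.3.3 (lmFit and eBayes, genotype as the single factor) over all 19458 probe sets without a filter, with Benjamini-Hochberg adjustment. A call needed an adjusted p under 0.05. Each difference is knockout minus wild type, and its SE is the moderated one. Precision is limited by the number of arrays. The code was tested on simulated data with the observed mean and the moderated variance of each probe set. Values were drawn independently, with no shared level of an array. With 50 probe sets changed at each size among 19458, the share recovered was 2% for a log2 change of 1, 52% for 2, 94% for 3 and 96% for 4. These shares hold for that setting, while the real arrays differed in overall level.

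Named are the members, the called genes of each pathway list or otherwise the 3 with the largest difference, and the 4 genes nearest in profile to ICAM1, CCL20 and TNFAIP3, besides markers, the chromosomal neighbours and genes said to be chosen after their values were seen. The members and lists were chosen with earlier results of these data known. Alternatives covered scaling (median centring, quantile normalization), low values (no probe sets of the dimmest 30%, a floor of 4), variance (trend, robust, no moderation), array weights, a replicate block and left-out arrays. A block for the 2 arrays of highest median was added after the data were seen.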

Additional observations from a re-analysis of the deposited data

How the results depend on the processing

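Over all probe sets 111 were called; the count was 175 with median centring, 174 with quantile normalization, 184 without the dimmest 30%, 169 with values under 4 set to 4, 396 with a variance trend, 778 with array weights, 3 with the replicate block, 7 without both arrays of highest median, 292 with those arrays as a block, and 24 to 63 with any 1 array left out. Members called were 0, but 1 (ICAM1) with a variance trend and 2 (ICAM1 and CXCL8) with array weights, and 0 to 1 with any 1 array left out. The ICAM1 difference passed at -2.84 with a variance trend (adjusted p = 0.0115) and at -3.33 with array weights, and ranged from -3.59 to -2.46 with any 1 array left out; that of CXCL8 passed at 1.36 with array weights. Pathway genes called were 1, but 2 without the dimmest 30%, 4 with a variance trend, 4 with array weights, 0 with the replicate block, 0 without both arrays of highest median and 2 with those arrays as a block.

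Replicate numbers did not pair the arrays: same-numbered arrays had correlations of deviations of -0.24, -0.43 and 0.06, and with the replicate block the ICAM1 adjusted p was 0.432. No member changed direction in the alternatives that could turn it, but 10 of 45 other genes did. The 45 are the pathway genes given with a difference, DNMT1, MTHFD2L and the genes nearest in profile. Markers and other neighbours were not rerun. With values under 4 set to 4, IL1B was at 0.096 and IL1A at 0.038, and without both arrays of highest median IL1B was at 0.097. With any 1 array left out the ranges crossed 0, from -1.46 to 0.031 for IL1B, -0.96 to 0.33 for IL1A, -0.30 to 2.03 for TLR5, -0.026 to 0.41 for CCL2, -0.013 to 1.10 for SELE, -0.016 to 1.15 for ITGAL, -0.039 to 0.49 for CCR6, -0.12 to 0.46 for ITGB2, -0.042 to 0.85 for TCEA3 and -0.12 to 0.72 for SPAG1. ICAM1, CXCL8 and CCL20 were among the dimmest 30% and could not be tested without them. Averaging probe sets of a gene was not run, as each measured member had 1 of its symbol alone. Signal near the bottom of the scale limits the size of the ICAM1 and CCL20 differences.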
